A study of Mus musculus with 4 samples.

Results

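Matrix metalloproteinases (MMPs) and their tissue inhibitors (TIMPs) were followed in macrophages grown from the bone marrow of wt and *lncLy6c* KO (LNCKO) mice, with or without butyrate. The members were taken by gene symbol as 7 MMPs (*Mmp2*, *Mmp8*, *Mmp9*, *Mmp12*, *Mmp13*, *Mmp14* and *Mmp19*) and 3 TIMPs (*Timp1*, *Timp2* and *Timp3*). All 10 were listed among the 16375 genes of the data, and all 10 had a mean of at least 0.1 FPKM over the libraries, as did 10959 genes in all. FPKM is the number of sequenced fragments of a gene per kilobase and per 1000000 fragments of the library.

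The study has 4 groups with 1 RNA library each, untreated (control) or butyrate-treated cells of either genotype. Butyrate, a short-chain fatty acid made by gut bacteria, was given at 500 µM for 24 h. According to the methods, LNCKO mice are on a C57BL/6J background and C57BL/6 mice of either sex were used, and how many mice gave each library is not given in the sources used here. In LNCKO mice the long noncoding RNA gene *lncLy6c* was disrupted with CRISPR-Cas9, and according to the methods marrow cells of all groups were grown with M-CSF. With 1 library per group no difference could be tested against the spread between animals or cultures, so every difference below is one between libraries.

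The libraries held 53363944 to 65521714 fragments. *lncLy6c* itself is not among the rows, and whether the targeted RNA was lost was not analysed here. The 4 Y-linked genes *Ddx3y*, *Eif2s3y*, *Kdm5d* and *Uty* were more than 2-fold higher in LNCKO libraries than in WT libraries in both treatments, and *Ddx3y*, for instance, had 0.0446 and 0.0320 FPKM in the WT libraries and 4.44 and 4.58 FPKM in the LNCKO libraries. Genotype and sex of the donor mice therefore cannot be told apart in any comparison of LNCKO with WT. All 10 macrophage markers were detected in every library, with a summed exon level (fragments per kilobase of merged exons and per 1000000 fragments) of 1788 to 2003. The 10 markers of neutrophils and granulocyte precursors were also detected in every library and summed to 6681 to 9895, above the macrophage sum. Sums of different lists depend on the genes chosen and do not give the shares of cell types. Fewer cells of a type and less RNA per cell cannot be told apart in such bulk samples.

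MMPs are zinc-dependent endopeptidases that are made as inactive precursors and cleave collagens, gelatins, elastin and other proteins of the extracellular matrix. TIMPs bind active MMPs in a one-to-one complex and block them. Macrophages are known as a main source of *Mmp12*, neutrophils store MMP8 and MMP9 protein in their granules, and MMP2, TIMP2 and TIMP3 are typical products of stromal cells.

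The deposited values divide fragments by the whole genomic span of a gene. Levels of different genes were therefore compared as the exon level, which is fragments per kilobase of merged exons and per 1000000 fragments. The neutrophil collagenase gene *Mmp8* had the highest mean exon level of the members, 329 over the 4 libraries, with a range of 251 to 560. The gelatinase gene *Mmp9* followed with 67.5 (57.4 to 86.6). Next stood *Mmp14*, which encodes the membrane-bound MT1-MMP, with a mean of 25.1, and *Timp2* with 22.6. The collagenase gene *Mmp13* had a mean of 18.7, and *Mmp19*, which encodes a secreted MMP outside the collagenase and gelatinase groups, had 16.2. *Timp1*, an inducible inhibitor gene, had 12.1. The remaining members lay far lower, with means of 1.09 for *Timp3*, 0.943 for the gelatinase gene *Mmp2* and 0.751 for the macrophage elastase gene *Mmp12*.

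The exon-level ranges of the libraries did not overlap between *Mmp8* and *Mmp9*, *Mmp9* and *Mmp14*, *Mmp19* and *Timp1*, or *Timp1* and *Timp3*, which is 4 of the 9 neighbouring pairs in that order. *Mmp14* overlapped *Timp2*, *Timp2* overlapped *Mmp13* and *Mmp13* overlapped *Mmp19*, as did *Timp3* with *Mmp2* and *Mmp2* with *Mmp12*. The ranges therefore did not resolve the order within these neighbouring pairs. Compared within each library, *Timp2* lay above *Mmp13* in all 4. The values were 22.5 against 14.5 in WT control, 26.7 against 22.6 in WT butyrate, 18.9 against 16.9 in LNCKO control and 22.3 against 20.9 in LNCKO butyrate. *Mmp14* and *Timp2* both lay wholly above *Mmp19*. The order also depends on the length used: per coding length, *Timp2* stood above *Mmp9*.

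**Figure D1:**
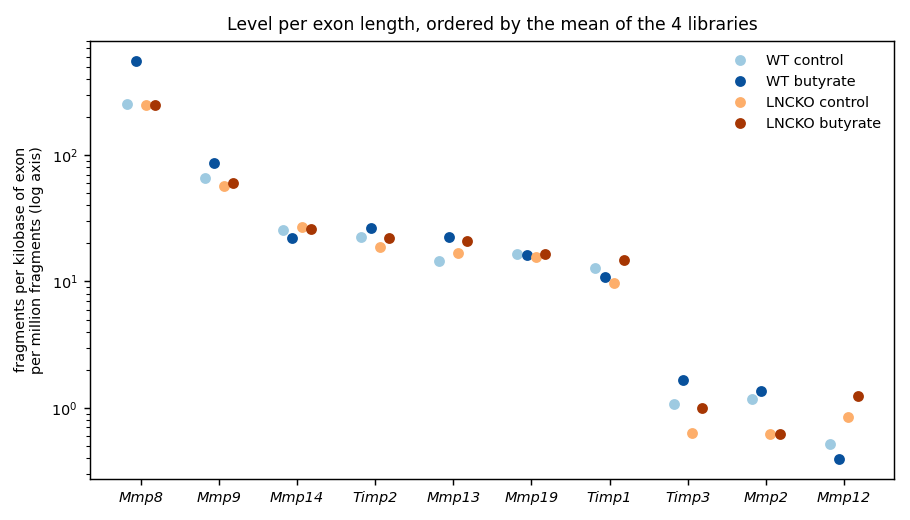
Exon level of each member in the 4 libraries, as fragments per kilobase of merged exon per 1000000 fragments on a log axis, 1 point per library, ordered by the mean. *Mmp8* lies above all other members in every library, and *Timp3*, *Mmp2* and *Mmp12* lie below 2 in every library.

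Summed over the 7 MMPs, the exon level was 709 in WT butyrate, against 376 in WT control, and 370 and 377 in LNCKO control and butyrate. *Mmp8* made up 79.0% of the sum in WT butyrate and 66.6% to 68.1% in the other libraries. The 3 TIMPs summed to 29.3 in LNCKO control and to 36.5 to 39.2 in the others, with *Timp2* the largest contributor in each library (58.3% to 68.2%). Thus the ratio of summed MMP to summed TIMP exon level was 18.1 in WT butyrate and between 9.87 and 12.6 in the other libraries. Without *Mmp8* it lay between 3.30 and 4.03 in all 4, and WT butyrate no longer had the highest ratio. These are RNA sums and say nothing of enzyme activity.

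The changes with butyrate and between genotypes are given as the difference of log2(FPKM + 0.1), which understates the change of low genes, and a member is counted as past 2-fold at a size of at least 1. Beside it stands the ratio of recovered fragments, scaled by library totals, with its exact 95% Clopper-Pearson interval. Intervals cover counting error only. They treat fragments as independent, which fragments without molecular identifiers need not be, so they can be too narrow even for counting error. They are narrow for genes with many fragments without telling how far another culture would lie.

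**Figure D2:**
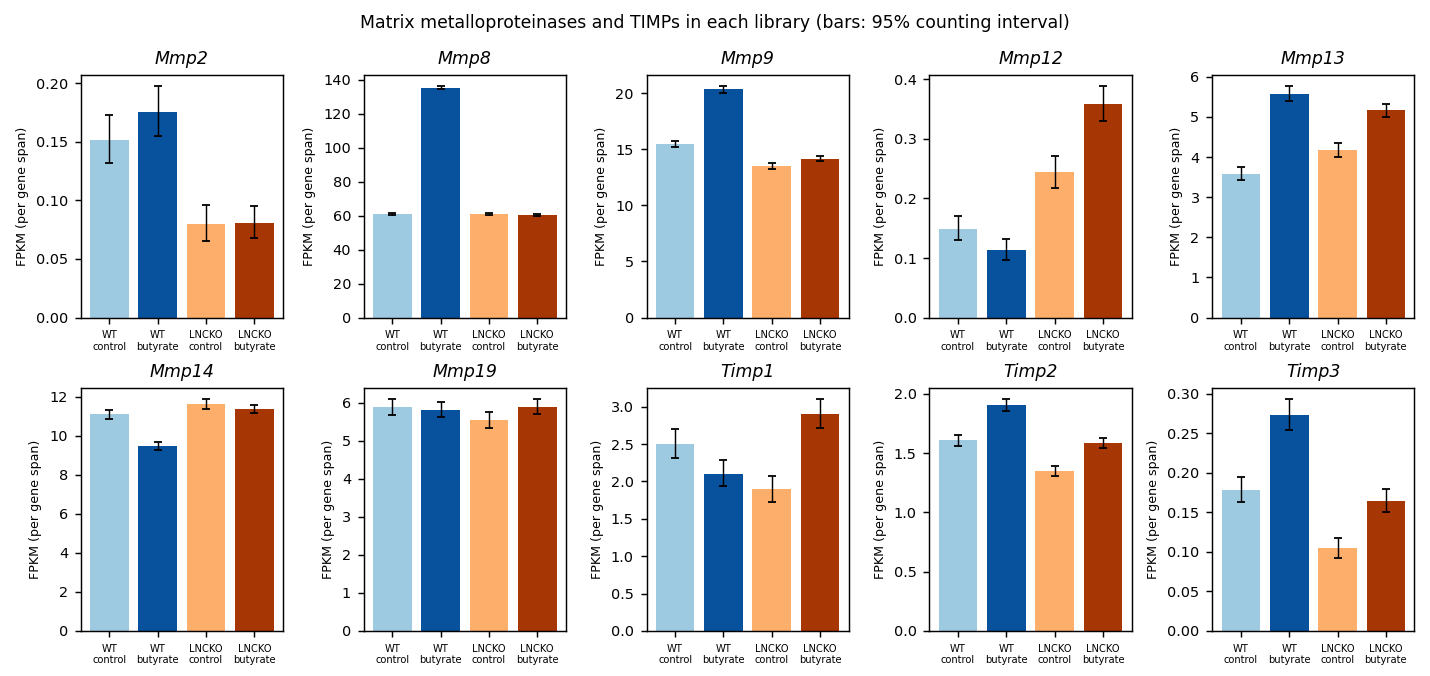
Deposited FPKM (per gene span) of the 10 members in the 4 libraries, each panel with its own axis from 0 and error bars giving the exact 95% counting interval. *Mmp8* stands at 135 in WT butyrate and near 61 in the other libraries, whereas *Mmp12* is highest in LNCKO butyrate.

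In WT cells, butyrate left 6 of the 10 members higher and 4 lower than in control, with a median change of 0.18 against -0.05 over all genes. *Mmp8* alone was past 2-fold higher and 0 members were past 2-fold lower. Over all 10959 genes, 0.903% were past 2-fold higher and 0.484% lower. In LNCKO cells, butyrate left 8 members higher and 2 lower, with a median of 0.16 against -0.02 over all genes, and 0 were past 2-fold in either direction, where 0.493% of all genes were higher and 0.301% lower. LNCKO control against WT control had 3 members higher and 7 lower (median -0.14 against 0.02) and again 0 past 2-fold, where the shares of all genes were 0.502% higher and 0.611% lower. Under butyrate, LNCKO against WT had 4 members higher and 6 lower (median -0.18 against 0.05). There *Mmp12* was past 2-fold higher and *Mmp8* past 2-fold lower, where 0.675% of all genes were higher and 0.794% lower. With so few members, 1 called gene is not a statement about the family. The comparisons share libraries and are not independent of each other.

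The change with butyrate in WT less that in LNCKO was past 2-fold in favour of WT for *Mmp8* and in favour of LNCKO for 0 members. Of all genes, 1.17% were past 2-fold in favour of WT and 0.995% in favour of LNCKO. Its median over the members was 0.03.

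**Figure D3:**
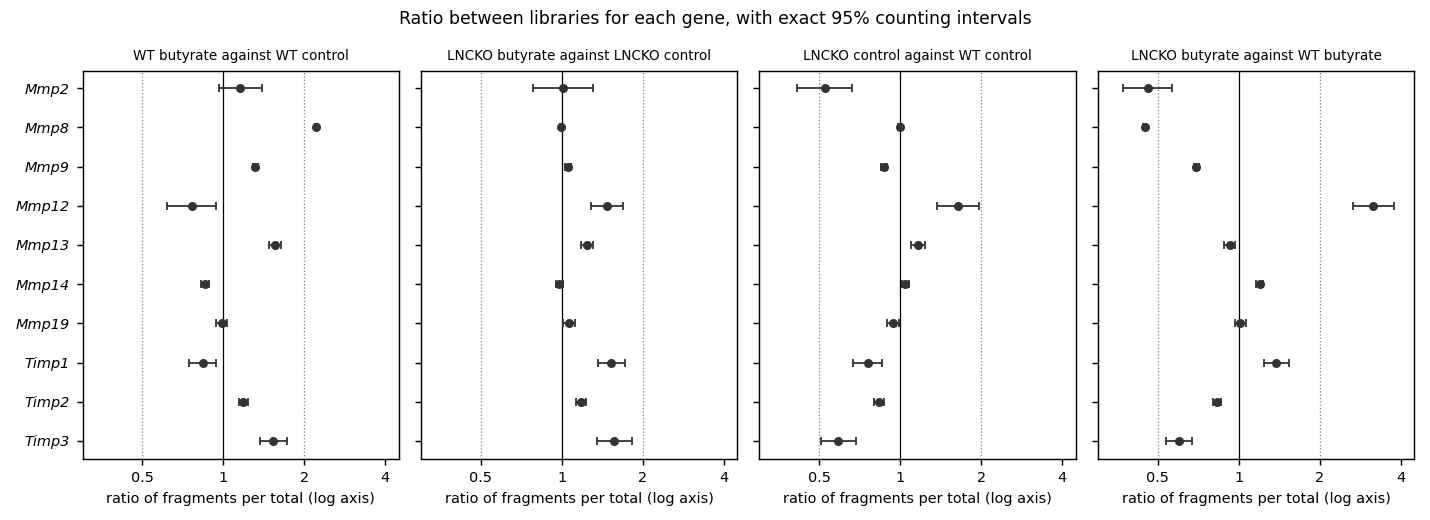
Ratio of fragments per library total for each member in the 4 comparisons, on a log axis with exact 95% counting intervals; the solid line marks equal levels and dotted lines mark 2-fold. *Mmp8* lies right of 2 in WT and at 1 in LNCKO, and *Mmp12* lies at 3.15 in LNCKO butyrate against WT butyrate.

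The collagenases *Mmp8* and *Mmp13* and the gelatinases *Mmp9* and *Mmp2* encode enzymes that degrade fibrillar collagen or its denatured form, as does the membrane-bound MMP14 described after them. *Mmp8* (ENSMUSG00000005800, chr9:7558456-7568485, plus strand, GRCm38) stood at 60.9 FPKM in control and 135 with butyrate in WT, and at 60.8 and 60.6 FPKM in the same order in LNCKO. The other libraries were thus nearly level and WT butyrate stood above them. The ratio for butyrate was 2.22 (2.19 to 2.25) in WT and 0.997 (0.982 to 1.01) in LNCKO, and log2 changes were 1.15 and -0.00. Ordered by that change, *Mmp8* was the 72nd highest of 10959 genes in WT. It was the 96th highest in the difference of the butyrate changes, which was 1.15. In control, LNCKO was at 0.998 (0.983 to 1.01) of WT. Under butyrate it was at 0.448 (0.443 to 0.453), a log2 change of -1.16.

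*Mmp9* (ENSMUSG00000017737, chr2:164940780-164955850, plus strand) had 15.4, 20.3, 13.5 and 14.2 FPKM. Here and from here on, values are listed for the WT libraries first and then for LNCKO, each time control before butyrate. *Mmp9* was thus also highest in WT butyrate, by less than 2-fold. Its ratio for butyrate was 1.32 (1.29 to 1.35) in WT and 1.05 (1.03 to 1.08) in LNCKO, log2 changes of 0.40 and 0.07. LNCKO was at 0.874 of WT in control and at 0.697 under butyrate. *Lcn2*, whose product binds and stabilises MMP9 protein, had 110, 148, 92.3 and 88.0 FPKM, ratios for butyrate of 1.34 in WT and 0.953 in LNCKO.

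*Mmp13* (ENSMUSG00000050578, chr9:7272514-7283331, plus strand) had 3.59, 5.58, 4.17 and 5.16 FPKM. Here both butyrate libraries were above both controls. The ratio was 1.56 (1.47 to 1.64) in WT and 1.24 (1.17 to 1.30) in LNCKO, log2 changes of 0.62 and 0.30, and neither reached 2-fold. LNCKO was at 1.16 of WT in control and at 0.925 under butyrate.

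*Mmp2* (ENSMUSG00000031740, chr8:92827291-92853420, plus strand) was low, at 0.151, 0.175, 0.0796 and 0.0806 FPKM, from 223, 271, 111 and 138 fragments. Both LNCKO libraries lay below both WT libraries, and *Mmp2* reached the mean of 0.1 FPKM only through the WT libraries. The ratio of LNCKO to WT was 0.526 (0.415 to 0.663) in control and 0.460 (0.372 to 0.567) under butyrate. On the log2(FPKM + 0.1) scale these were -0.48 and -0.61, so that *Mmp2* is not counted as past 2-fold, although its plain ratio under butyrate is. With butyrate the ratio was 1.16 in WT and 1.01 in LNCKO, and both counting intervals held 1.

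The elastase gene *Mmp12* (ENSMUSG00000049723, chr9:7344381-7369499, plus strand) had 0.149, 0.114, 0.244 and 0.358 FPKM, from 211, 169, 327 and 590 fragments. Both LNCKO libraries were above both WT libraries, and butyrate stood below control in WT and above it in LNCKO. The ratio for butyrate was 0.763 (0.620 to 0.939) in WT and 1.47 (1.28 to 1.69) in LNCKO. For LNCKO against WT it was 1.64 (1.37 to 1.96) in control and 3.15 (2.65 to 3.76) under butyrate, log2 changes of 0.47 and 1.10. Under butyrate it was the 62nd highest of 10959 genes. The call rests on low values and is lost with a pseudocount of 1. The span of *Mmp12* overlaps *Mmp1b* on the minus strand, which is not among the genes listed.

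Among the membrane-bound and other MMPs, values differed less. *Mmp14* (ENSMUSG00000000957, chr14:54431612-54445364, plus strand), whose product also activates the MMP2 precursor, had 11.1, 9.49, 11.6 and 11.4 FPKM and was lowest in WT butyrate, with a ratio for butyrate of 0.855 (0.829 to 0.882) in WT and of 0.979 (0.951 to 1.01) in LNCKO. LNCKO was at 1.05 of WT in control and at 1.20 under butyrate. *Mmp19* (ENSMUSG00000025355, chr10:128790910-128800824, plus strand) had 5.88, 5.80, 5.54 and 5.89 FPKM, the most even values of the members. Its log2 changes lay between -0.08 and 0.09 in the 4 comparisons. It overlaps *Tmem198b* and *Gm47093* on the minus strand, and *Tmem198b* held 690 to 963 fragments. Whether counting used strand is not given in the sources used here, so part of either gene's fragments could belong to the other.

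*Timp1* (ENSMUSG00000001131, chrX:20870166-20874735, plus strand) had 2.51, 2.10, 1.90 and 2.90 FPKM. Butyrate was below control in WT, with a ratio of 0.839 (0.748 to 0.941), and above it in LNCKO, with 1.53 (1.36 to 1.71). The log2 changes were -0.24 and 0.59. LNCKO stood below WT in control (0.757, 0.671 to 0.855) and above it under butyrate (1.38, 1.24 to 1.53). *Timp1* is X-linked and lies inside the span of *Syn1* on the minus strand, which held 235 to 357 fragments against 463 to 868 for *Timp1*. *Syn1* had ratios for butyrate on the same sides of 1, 0.802 (0.672 to 0.958) in WT and 1.21 (1.02 to 1.43) in LNCKO. Its ratio of LNCKO to WT was 1.37 (1.16 to 1.63) under butyrate. In control it was 0.913 (0.765 to 1.09), with an interval that held 1. Since the use of strand is not known, fragments of the overlapping genes cannot be told apart. The part of donor sex in the genotype differences of *Timp1* was not tested.

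*Timp2* (ENSMUSG00000017466, chr11:118301069-118355740, minus strand), whose product both inhibits MMPs and links MMP2 precursor to MMP14, had 1.61, 1.90, 1.34 and 1.59 FPKM. Butyrate was above control in both genotypes by nearly the same ratio, 1.19 in WT and 1.18 in LNCKO. LNCKO was at 0.837 of WT in control and at 0.833 under butyrate. *Cep295nl*, on the same strand within its span, held only 12 to 48 fragments.

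*Timp3* (ENSMUSG00000020044, chr10:86300372-86349506, plus strand), which encodes the matrix-bound inhibitor, had 0.178, 0.273, 0.105 and 0.165 FPKM, from 493, 795, 275 and 530 fragments. Like *Timp2*, it was higher with butyrate and lower in LNCKO. The ratio for butyrate was 1.54 (1.37 to 1.72) in WT and 1.57 (1.35 to 1.82) in LNCKO, and LNCKO was at 0.589 (0.507 to 0.685) of WT in control and at 0.602 (0.539 to 0.673) under butyrate. None of these log2 differences reached 2-fold. *Timp3* lies inside *Syn3* on the minus strand, which held 36 to 55 fragments.

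For the members of which RefSeq (GRCm38.p6) gives a start site, the bases before it were read, as MMP promoters are known for AP-1 sites and *Mmp13* for RUNX sites. Entries were found for 7 members, with 8 windows of 250 bases before to 50 after the start since *Mmp12* has 2 starts. *Mmp2*, *Mmp9* and *Mmp19* were not matched. Searched were TGANTCA for AP-1, which reads the same on both strands, and TGTGGT or its reverse complement ACCACA for RUNX. Of all 32851 RefSeq promoter windows, 7.81% held the AP-1 letters and 16.8% the RUNX letters. The AP-1 letters were found in *Mmp13* and in the second start of *Mmp12*, with first bases at -35 and -44. The RUNX letters were found in *Mmp13* at -118 and in *Mmp14* at -114. The windows of *Mmp8*, the first start of *Mmp12*, *Timp1*, *Timp2* and *Timp3* held neither. The 130 bases before the start are given for the most changed member in WT, *Mmp8* (chr9:7558299-7558428), for the second start of *Mmp12* (chr9:7347244-7347373), for *Mmp13* (chr9:7272384-7272513) and for *Mmp14* (chr14:54431468-54431597), all on the plus strand, 5′ to 3′, with the motif letters in capitals.
Mmp8: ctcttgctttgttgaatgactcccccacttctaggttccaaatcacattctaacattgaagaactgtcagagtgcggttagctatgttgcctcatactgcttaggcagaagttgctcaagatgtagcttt
Mmp12, second start: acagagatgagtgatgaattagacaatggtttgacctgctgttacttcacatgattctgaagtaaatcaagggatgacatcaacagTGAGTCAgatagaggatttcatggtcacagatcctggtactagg
Mmp13: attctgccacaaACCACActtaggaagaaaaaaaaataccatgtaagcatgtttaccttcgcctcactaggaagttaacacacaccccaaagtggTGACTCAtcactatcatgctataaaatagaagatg
Mmp14: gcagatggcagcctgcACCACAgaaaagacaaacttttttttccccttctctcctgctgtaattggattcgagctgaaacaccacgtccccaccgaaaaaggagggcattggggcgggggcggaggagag

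A match is a description of letters in a window and not a site of binding. Ratios for butyrate in WT and then LNCKO were 1.56 and 1.24 for *Mmp13*, whose window holds both motifs. They were 0.763 and 1.47 for *Mmp12*, with AP-1 letters at 1 start, and 0.855 and 0.979 for *Mmp14*, with RUNX letters. Of the members with neither, *Mmp8* had 2.22 and 0.997, *Timp1* 0.839 and 1.53, *Timp2* 1.19 and 1.18, and *Timp3* 1.54 and 1.57. Whether the motifs have a part in these ratios was not tested.

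*Mmp27* lies 2910 bases beyond the end of *Mmp8* on the same strand (chr9:7571396-7581885), and from the start of *Mmp13* to its end the gene cluster spans 309372 bases. Of the other MMP and TIMP genes, 14 of 17 were listed and 5 had a mean of at least 0.1 FPKM. *Mmp27* had 2.39, 5.36, 3.29 and 3.49 FPKM and was the only one of the 5 past 2-fold in a pairwise comparison on the log2(FPKM + 0.1) scale, with a ratio for butyrate of 2.24 (2.11 to 2.39) in WT and 1.06 in LNCKO. Like *Mmp8*, it was highest in WT butyrate, where 0.903% of all genes passed 2-fold higher than in WT control. In the difference of the butyrate changes *Mmp27* was past 2-fold in favour of WT and *Mmp23*, named after its values were seen, in favour of LNCKO. *Mmp23* rested on 74, 33, 29 and 42 fragments, and its plain ratio was also past 2-fold for butyrate in WT (0.425) and for LNCKO against WT in control (0.414).

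Of 20 activators and regulators of MMPs, 13 had a mean of at least 0.1 FPKM, and 7 of them were higher and 6 lower with butyrate in WT. None passed 2-fold with butyrate in either genotype by the log2(FPKM + 0.1) measure, although the plain ratio of *Thbs2* in WT was 2.22. *Thbs2*, whose product helps clear MMP2 from the cell's surroundings, was past 2-fold lower in LNCKO in both treatments, with ratios of 0.133 (0.0905 to 0.189) in control and 0.104 (0.0808 to 0.132) under butyrate. Its FPKM was low, at 0.172, 0.383, 0.0228 and 0.0398. *Thbs2* reached the mean of 0.1 FPKM only through the WT libraries, so the filter favours its call as lower in LNCKO. Of all genes, 0.611% passed 2-fold lower in LNCKO in control and 0.794% under butyrate. Of 12 ADAM and ADAMTS genes, 8 had that mean, 6 of these 8 were lower with butyrate in each genotype, and 0 passed 2-fold in any comparison. Their medians with butyrate were -0.18 in WT and -0.04 in LNCKO, against -0.05 and -0.02 over all genes.

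Of 18 matrix genes whose products MMPs cleave or bind, 11 had that mean. In WT, butyrate left 5 higher and 6 lower (median -0.14), and *Fn1*, which encodes fibronectin, alone passed 2-fold, with 3.22, 8.56, 2.63 and 3.01 FPKM and a ratio of 2.66 (2.60 to 2.71). In LNCKO, 10 of 11 were higher with butyrate (median 0.83) and 2 passed 2-fold. In control, all 11 were lower in LNCKO than in WT by sign (median -0.66). Among them the osteopontin gene *Spp1* was level, with a ratio of 0.999 (0.986 to 1.01). Of the 11, 5 passed 2-fold lower, among them the collagen genes *Col1a1* (5.14, 4.04, 1.20 and 2.31 FPKM) and *Col1a2* (2.49, 1.91, 0.548 and 1.23 FPKM). *Sparc*, which encodes a collagen-binding protein, and *Col6a1* were also among these 5. Under butyrate 7 of 11 were lower in LNCKO and 2 passed 2-fold lower. Over all genes, the medians of these 4 comparisons in turn were -0.05, -0.02, 0.02 and 0.05. With butyrate, 0.903% of all genes passed 2-fold higher in WT and 0.493% in LNCKO. Against WT, 0.611% of all genes passed 2-fold lower in LNCKO in control and 0.794% under butyrate.

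Markers of other cells moved with some of these values. Of the 10 markers of neutrophils and granulocyte precursors, 7 were higher with butyrate in WT and 3 in LNCKO. Medians were 0.24 and -0.04, against -0.05 and -0.02 over all genes, and 0 of these markers passed 2-fold in any comparison. Their summed exon level was 8056, 9895, 6910 and 6681, highest in WT butyrate as was *Mmp8*, and no marker was at 0. The sum was 1.23-fold higher with butyrate in WT, where *Mmp8* was 2.22-fold higher, and the marker with the highest ratio, *Elane*, was at 1.60. The 3 markers that were lower with butyrate in WT were *Ngp* (407 to 319 FPKM), *Ltf* (22.1 to 19.5) and *Camp* (50.3 to 36.7). The part of such cells in the *Mmp8* and *Mmp9* values was not tested.

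Of the 10 stromal markers, 8 had a mean of at least 0.1 FPKM, and 7 of the 8 were lower in LNCKO than in WT in each treatment, with medians of -0.61 in control and -0.42 under butyrate. Over all genes, these medians were 0.02 and 0.05. With butyrate, 6 of the 8 were higher in WT (median 0.35) and 7 of the 8 in LNCKO (median 0.84, 2 past 2-fold). *Timp2* and *Timp3* were higher with butyrate in both genotypes. The markers that were lower in WT were *Col1a1* (5.14 to 4.04 FPKM) and *Col1a2* (2.49 to 1.91 FPKM). In LNCKO the lower marker was *Thy1* (0.631 to 0.438 FPKM). The medians with butyrate over all genes were -0.05 and -0.02, and 0.493% of all genes passed 2-fold higher in LNCKO. The summed exon level of the 10 stromal markers was 30.1, 29.5, 10.7 and 19.4, lowest in LNCKO control, where *Timp3* was also lowest and *Mmp2* low. *Col1a1*, *Col1a2*, *Col3a1* and *Dcn* stand in both the stromal and the matrix list, so that these lists are not separate evidence. Their part in the *Mmp2*, *Timp2* and *Timp3* values was not tested.

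Osteoclasts are known for high *Mmp9*. Of 8 osteoclast markers, 7 were listed and summed to 61.7, 70.1, 60.3 and 74.3 in exon level, and 3 of them were at or near 0: *Dcstamp* at 0 in both LNCKO libraries, *Ocstamp* in LNCKO control and *Oscar* in both butyrate libraries, with at most 23 fragments for any of them in the other libraries. The other 4, *Acp5*, *Ctsk*, *Atp6v0d2* and *Nfatc1*, were detected in every library, and *Acp5* had 7.77, 8.57, 7.73 and 8.92 FPKM. With butyrate 3 of these 4 were higher in each genotype and *Nfatc1* was lower. None passed 2-fold in any comparison on the log2(FPKM + 0.1) scale. The plain ratio of *Ctsk* with butyrate was 1.69 in WT and 2.08 in LNCKO. The part of such cells in the *Mmp9* values was not tested. The 5 endothelial markers summed to 22.6 to 25.4.

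**Figure D4:**
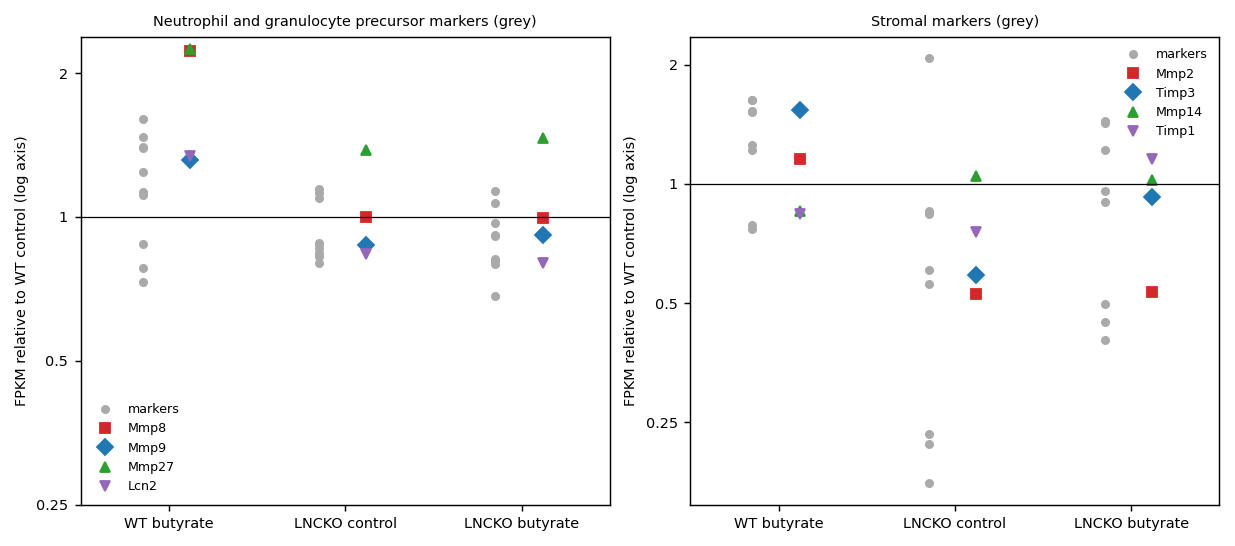
FPKM relative to WT control, on a log axis, in the other 3 libraries, with the markers of neutrophils and granulocyte precursors (left) or of stromal cells with a mean of at least 0.1 FPKM (right) as grey points and named genes as coloured symbols. *Mmp8* and *Mmp27* lie above all 10 markers in WT butyrate on the left, and on the right 7 of 8 stromal markers, *Mmp2* and *Timp3* lie below 1 in LNCKO control.

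Of the 10 members, 4 differed 2-fold or more in FPKM between their highest and lowest library. The genes whose centred log2(FPKM + 0.1) profile over the 4 libraries was nearest to theirs, by Euclidean distance among 6809 genes with a mean of at least 1 FPKM, were as follows. Nearest to *Mmp8* were *Klrb1f* (distance 0.111), *Ccl5* (0.160) and *Rnase2a* (0.168). Of these *Ccl5*, which encodes a T cell and monocyte chemoattractant, had 81.2, 203, 85.4 and 92.9 FPKM. *Mmp12* was nearest to *Plau* (0.237), which encodes the urokinase that activates plasminogen, to *Nr1h3* (0.251) and to *Ankrd37* (0.276). For *Timp3* these were *Anpep* (0.0888), *Stfa2l1* (0.133) and *Sirpb1c* (0.136). *Mmp2* was nearest to the X-linked *Eif2s3x* (0.050), to *Ifitm2* (0.117) and to *B3galt6* (0.123). The added 0.1 shrinks the differences of *Mmp2*, *Mmp12* and *Timp3*, which are low, more than those of the genes compared. A near profile is therefore not an equal fold change. *Mmp2* differed 2.20-fold between its highest and lowest library, where *Eif2s3x* had 4.39, 4.59, 3.02 and 3.02 FPKM. *Mmp12* differed 3.15-fold, where *Plau* had 2.25, 1.91, 3.18 and 3.49 FPKM. With only 4 libraries, these distances are a description.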

How the data were processed

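Total RNA of 4 libraries of bone marrow-derived macrophages, 1 per group, was sequenced. The methods name TRIzol and paired-end reads on MGISEQ-2000, and the labels an RNeasy kit with TruSeq libraries and Illumina protocols. The authors deposited FPKM values per gene and library and no counts. The submitters' processing notes list STAR 2.5.0c, Picard 1.126, bedtools 2.17.0, HTSeq 0.6.0 and DESeq2 3.0 and the builds GRCm38 and mm10, without a role for each. The table's columns for LNCKO are named NC and R3 and were matched to their samples by the library names in the labels. No column was left unmapped.

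Library totals were recovered as the numbers that turn FPKM into whole fragments on gene spans of GENCODE M21. Of 16375 genes, 16342 were matched to that annotation. Of the matched genes, 16112 (98.6%) were whole within 0.05 in all 4 libraries, including the 10 members, against 1222 (7.48%) on exon lengths. Changes were differences of log2(FPKM + 0.1), over genes with a mean of at least 0.1 FPKM, and no test was run. Alternatives were other pseudocounts, filters, scalings, lengths and units. The steps were tested on simulated data. Named were all members, up to 5 genes past 2-fold of each list, marker genes, and the 3 nearest profiles of members that varied 2-fold or more. *Lcn2*, *Mmp23* and genes overlapping members were named outside this rule, with their values seen. The members and lists were chosen with earlier results of these data known. Promoters were read from RefSeq, and protein sequences were not used here. The software was pandas 2.3.3, scipy 1.17.1 and numpy 2.4.6 under Python 3.11.15, with figures from matplotlib 3.10.9.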

Additional observations from a re-analysis of the deposited data

Results flagged for a closer look

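*Mmp12* and *Timp1* moved in opposite directions with butyrate in the genotypes. The log2 change of *Mmp12* was -0.22 in WT and 0.41 in LNCKO, and that of *Timp1* was -0.24 in WT and 0.59 in LNCKO. *Syn1*, which overlaps *Timp1* on the other strand, moved in the same directions (ratios of 0.802 and 1.21). Both members were flagged because the counting intervals of their butyrate ratios left out 1 in opposite directions in the genotypes. That the intervals left out 1 is therefore no separate support. With 1 library per group the difference between the genotypes was not tested.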

How the results depend on the processing

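With 1 library per group, no library could be left out and no spread between replicates is known. No paired analysis was possible because each group has 1 library and no result comes from a test. The count of members past 2-fold between LNCKO butyrate and WT butyrate was 2, and fell to 1 with a pseudocount of 1, and also to 1 when genes below a mean of 1 FPKM were left out. *Mmp8* was then the member counted, and the latter filter removes *Mmp2*, *Mmp12* and *Timp3*. It was 3, with *Mmp2* added, with a pseudocount of 0.01, with none and in fragments per 1000000. The counts of the other 4 comparisons were the same under all 8 alternatives. Of 385 member values under these alternatives, 0 called values changed sign, 59 moved and 326 did not. Moved means a shift larger than the distance from the middle to the end of the log2 counting interval. The filters on low values change which genes are counted but not a member's value. Values under them could not move and are among the 326. Of uncalled values, 10 took the other sign, all of size 0.0566 or less, among them *Mmp8* with butyrate in LNCKO and *Mmp19* with butyrate in WT. The share of all genes past 2-fold moved more, in WT with butyrate from 0.192% higher (21 genes, pseudocount of 1) to 3.91% (547 of 13981 genes, fragments per 1000000), against 99 of 10959 genes as reported. In fragments per 1000000, the minimum and pseudocount of 0.1 apply to another unit, so that more genes pass and the shares are not like for like. Neighbouring members with separate ranges were 4 pairs per exon length and 5 per span or coding length. *Mmp2*, *Mmp12* and *Timp3*, with 111 to 795 fragments per library, are the least precise.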

Other observations

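*Spp1*, which encodes osteopontin, a matrix protein that MMPs cleave, was high and was above control with butyrate in both genotypes: 146 FPKM in control and 255 with butyrate in WT, and 146 and 234 FPKM in LNCKO, ratios of 1.75 and 1.60. *Thbs1*, which encodes thrombospondin 1, had 238 and 428 FPKM in WT and 284 and 293 FPKM in LNCKO, with ratios for butyrate of 1.80 (1.79 to 1.81) in WT and 1.03 (1.02 to 1.04) in LNCKO. Both were named after their values were seen.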
